A study of Mus musculus with 12 samples.

Results

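The Isg15 conjugation system was followed through 3 listed genes, Isg15, Usp18 and Herc6, on single-colour Agilent whole mouse genome arrays. Isg15 encodes a ubiquitin-like protein, Usp18 the main protease that removes it from its targets, and Herc6 the ligase that attaches it in mouse cells. The members were all probes whose RefSeq accession maps to one of these genes. Isg15 and Usp18 had 1 probe each, so 2 of the 3 listed genes were measured, out of 17305 genes that could be named. No probe's accession matched Herc6, and it was not analysed here. These genes were chosen by their signal differences between the 4 groups in an earlier reading of the same arrays, so their levels and differences are given as descriptions. Where the fit over all features called them, the call is stated beside the share of features called and supports nothing about them.

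Embryonic fibroblasts of mice were compared in 4 groups of 3 arrays. IR-KO arrays carried RNA of ATM-KO cells irradiated at 4.32 Gy, NonIR-KO arrays of nonirradiated ATM-KO cells, IR-WT arrays of ATM-WT cells irradiated at the same dose, and NonIR-WT arrays of nonirradiated ATM-WT cells, all after 72 h of culture. Atm encodes a kinase that signals DNA double-strand breaks. The labels do not give the allele, the animals or clones behind the cells, or whether replicates were separate cultures, so p-values measure the spread between these arrays, which may be technical.

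Isg15 is made as a precursor and joined to lysines of other proteins by a cascade like that of ubiquitin, with Uba7 as activating enzyme (E1), Ube2l6 as conjugating enzyme (E2) and Herc6 as ligase (E3). Usp18 cuts the modifier off again and, apart from its protease activity, binds the interferon receptor and dampens signalling from it. Isg15, Usp18 and Uba7 are classical genes of the type I interferon response: interferon binds Ifnar1 and Ifnar2, the kinases Jak1 and Tyk2 activate Stat2 among other factors, and Stat2 acts with Irf9 on a DNA element called the interferon-stimulated response element (ISRE).

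All values below are log2 processed signal minus the array's own 75th percentile, so 0 is the level that 75% of probes do not pass. The 75th percentile ran from 379 to 757 intensity units, and the share of probes well above background from 55.3% to 64.5%. A probe's level cannot be set against another probe's on this scale. All 10 fibroblast markers checked, from Col1a1 to Vim, were well above background on all 12 arrays. One of them, Pdgfra, averaged 1.97 in IR-KO and 1.90 in NonIR-KO, against 2.62 in IR-WT and 3.07 in NonIR-WT. Fibroblast markers Dcn, Lum and Thy1 also had both ATM-KO means below both ATM-WT means. Pdgfrb went the other way, at 5.84 in IR-KO and 5.91 in NonIR-KO against 5.76 in IR-WT and 5.80 in NonIR-WT. The remaining fibroblast markers went neither way. Endothelial Cdh5 averaged -5.94 in IR-KO and -5.69 in NonIR-KO, against -3.25 in IR-WT and -2.58 in NonIR-WT. Endothelial Tek and Emcn also had both ATM-KO means below both ATM-WT means, Kdr did not, and Pecam1 was not above background on any array. Epithelial Cdh1 averaged -5.09 and -4.07 in the ATM-KO groups against -2.97 and -2.68 in the ATM-WT groups. Krt8 and Krt14 also had lower ATM-KO means, and Krt18 did not. Epcam went the other way, at -5.40 in IR-KO and -5.17 in NonIR-KO against -6.52 in IR-WT and -6.26 in NonIR-WT. Of 10 macrophage and blood markers 9 had a probe, and both ATM-KO group means were below both ATM-WT group means for 9 of these 9. Their summed level spanned -1.03 to -0.64 in IR-KO, -1.17 to -0.60 in NonIR-KO, 0.74 to 1.38 in IR-WT and 1.13 to 1.88 in NonIR-WT, and the markers Ptprc and Itgam were above background on 2 of 12 arrays each, Laptm5 on 6, Adgre1 on 7, Tyrobp and Cd53 on 9 each, and Csf1r, Cd14 and Lyz2 on all 12. In bulk RNA, fewer cells of a type and less RNA per cell cannot be told apart. The brighter of 2 Atm probes was well above background on 1 of 3 IR-KO, 0 of 3 NonIR-KO, 3 of 3 IR-WT and 2 of 3 NonIR-WT arrays. Its values ran from -7.50 to -5.66 in IR-KO, -7.01 to -5.43 in NonIR-KO, -4.60 to -2.87 in IR-WT and -5.65 to -3.55 in NonIR-WT. The dimmer was well above background on 0 of 3, 0 of 3, 2 of 3 and 2 of 3 arrays in the same order. It differed by -1.15 in NonIR-KO minus NonIR-WT and by -1.91 in IR-KO minus IR-WT, against -1.73 and -2.52 for the brighter. The sources used here do not say where these probes lie relative to the disruption.

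The promoter of Isg15 is shown because it holds runs that match the letters of the ISRE. RefSeq windows of 250 bases before to 50 after the start (GRCm38.p6) were searched on both strands for an ISRE core, which is GAAA, any 2 bases and GAAA again, and for a second interferon-related element, GAS, TTCNNNGAA, which can share bases. The Isg15 window lies at chr4:156200769-156201068 on the minus strand and holds 3 ISRE cores that overlap, with first bases 78, 72 and 66 bases before the start, in capitals below, and 0 GAS matches. An ISRE core stood in 3.43% of the 32817 windows of all genes and a GAS match in 8.29%.
Isg15 promoter: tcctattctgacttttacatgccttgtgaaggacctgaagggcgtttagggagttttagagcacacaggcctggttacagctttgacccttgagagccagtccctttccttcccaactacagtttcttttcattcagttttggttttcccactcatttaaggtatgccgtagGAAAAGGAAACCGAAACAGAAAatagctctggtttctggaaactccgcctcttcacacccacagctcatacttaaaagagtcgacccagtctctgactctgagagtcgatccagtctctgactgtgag
By name, 32 genes were looked up: the members, the 2 lists of pathway and induction genes, and the genes most like the members (below). Of the 32, 24 had a window and 5 held an ISRE core, and over all genes with a window the share was 3.98%. Beside Isg15, Stat2 and Bst2 these were Skp2, which had no matched probe, and Ifna4, which was not above background on any array. The windows of Oasl2 and Xaf1, whose signals were most like both members' (below), held no core. Those of Parp12, Irf7, Irf9, Uba7 and Ube2l6 held none either. The members' set of 3 had 2 windows, and that of Herc6 held neither motif. Stat2, a subunit of the factor that binds the element, held 1 ISRE core on the opposite strand at chr10:128270256-128270305, plus strand. Bst2, a membrane protein that tethers budding viruses and whose signal was among those most like both members' (below), held 2 that overlap, the first of them sharing bases with a GAS match, at chr8:71537567-71537622, minus strand. Both stretches are printed with the cores in capitals for comparison with the Isg15 run.
Stat2 promoter: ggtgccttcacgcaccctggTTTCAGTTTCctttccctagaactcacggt
Bst2 promoter: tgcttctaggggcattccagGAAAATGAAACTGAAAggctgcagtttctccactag
A match is a description of the letters and was not tested as a binding site.

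The modifier gene Isg15 gave a bright signal on all 12 arrays, and its level was low in 1 group only. The 3 arrays had 6.92, 7.31 and 7.06 in IR-KO, 6.61, 6.96 and 6.80 in NonIR-KO, 6.59, 7.19 and 6.92 in IR-WT, and 3.56, 4.54 and 4.46 in NonIR-WT. Every NonIR-WT array lay below every array of the other groups, and those groups overlapped each other. Group means were 7.10 ± 0.196 in IR-KO, 6.79 ± 0.175 in NonIR-KO, 6.90 ± 0.298 in IR-WT and 4.19 ± 0.543 in NonIR-WT (SD, n = 3 each). The order of means was therefore IR-KO, IR-WT, NonIR-KO and NonIR-WT, with neighbours overlapping except at the last step. On the scanner's own scale the processed signal of the Isg15 spot was 68500 to 85900 in IR-KO, 41900 to 57100 in NonIR-KO, 52200 to 73100 in IR-WT and 7190 to 9650 in NonIR-WT, and the saturation flag was set on 0 of 12 arrays.

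The protease gene Usp18 had the same low group, and also separated irradiated ATM-KO cells from the rest. Its values were 4.80, 5.01 and 4.74 in IR-KO, 3.89, 4.32 and 4.21 in NonIR-KO, 4.11, 4.41 and 4.27 in IR-WT, and 0.73, 1.49 and 1.15 in NonIR-WT. Every IR-KO array was above every array of the other groups, NonIR-KO and IR-WT overlapped, and every NonIR-WT array was below all others. Group means were 4.85 ± 0.141 in IR-KO, 4.14 ± 0.226 in NonIR-KO, 4.27 ± 0.151 in IR-WT and 1.12 ± 0.381 in NonIR-WT (SD, n = 3 each). The order of means was the same as for Isg15, IR-KO, IR-WT, NonIR-KO and NonIR-WT, and the middle pair did not differ beyond its spread. The processed signal of the Usp18 spot was 13700 to 19800 in IR-KO, 6370 to 9220 in NonIR-KO, 8350 to 13100 in IR-WT and 969 to 1060 in NonIR-WT, unsaturated and well above background on every array.

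**Figure D1:**
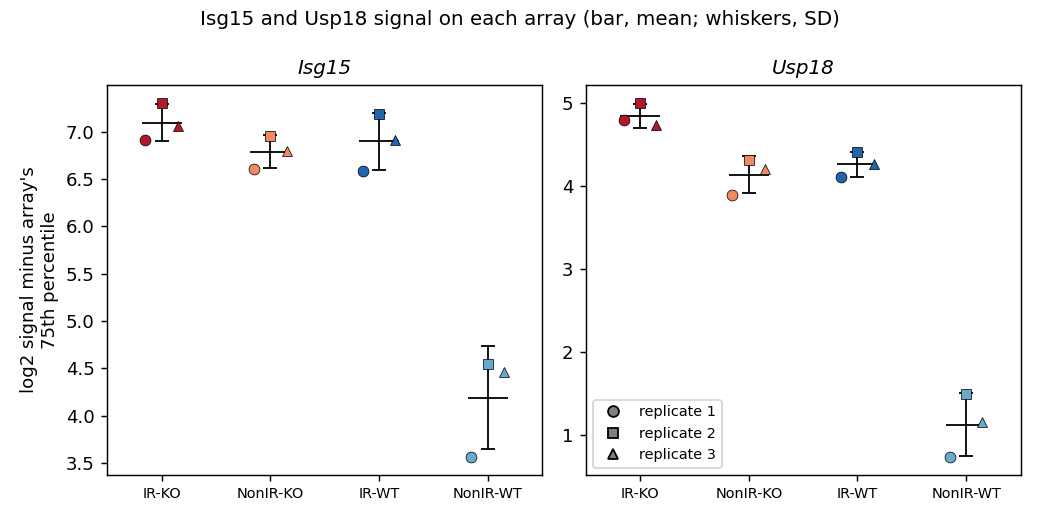
Log2 signal minus the array's 75th percentile for Isg15 (left) and Usp18 (right) on each of the 12 arrays; marker shape gives the replicate number, the bar the group mean and the whiskers the SD (n = 3). The NonIR-WT arrays sit at 3.56 to 4.54 for Isg15 and 0.73 to 1.49 for Usp18, below all others, and the vertical axes do not start at 0.

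In ATM-WT cells both genes were higher after irradiation, with every IR-WT array above every NonIR-WT array, as 4.50% of features had. Isg15 was higher by 2.71 ± 0.293 (log2, limma SE, 6.55-fold) and Usp18 by 3.15 ± 0.25 (8.85-fold). The per-replicate differences of IR-WT minus NonIR-WT were 3.03, 2.65 and 2.46 for Isg15, and 3.39, 2.93 and 3.13 for Usp18. Both were called higher by limma at an adjusted p of 0.05 over 18430 features, where 0.423% of features were; as this contrast was in view when the genes were proposed, nothing is read from that count. Usp18 ranked 25 and Isg15 38 among all features, counted from the largest rise.

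In ATM-KO cells the differences after irradiation were smaller. Isg15 differed by 0.31 ± 0.293 (log2, limma SE, 1.24-fold), with replicate differences of 0.31, 0.35 and 0.27, and its IR-KO and NonIR-KO arrays overlapped. With quantile normalization its difference was 0.57. Usp18 differed by 0.71 ± 0.25 (1.64-fold), with replicate differences of 0.92, 0.69 and 0.54, and its IR-KO arrays all lay above its NonIR-KO arrays, as 6.70% of features did. Neither gene was called at the adjusted p of 0.05, where 1 feature, 0.00543%, was called in either direction.

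The difference of the effects, ATM-KO minus ATM-WT, was -2.40 ± 0.414 for Isg15 and -2.43 ± 0.353 for Usp18 (log2, limma SE). Matched by replicate number it was -2.72, -2.29 and -2.19 for Isg15, and -2.47, -2.24 and -2.59 for Usp18. Same-numbered nonirradiated samples of the genotypes did not correlate (-0.217 to 0.179). These values are therefore matchings by number and not replicate observations. Without a replicate block 0.00543% of features were called lower, which included neither gene. With the replicate number within each genotype as a block, the SE fell to 0.257 for Isg15 and 0.258 for Usp18. In that fit 0.0217% were called lower, both genes included. This contrast was among those in view when the genes were chosen, so nothing is read from these calls.

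Between genotypes the same 2 genes were higher in nonirradiated ATM-KO cells than in nonirradiated ATM-WT cells. Isg15 was higher by 2.60 ± 0.293 (log2, limma SE, 6.06-fold) and Usp18 by 3.02 ± 0.25 (8.11-fold), both called higher, as 0.391% of features were, and with groups that do not overlap, as 8.29% of features had. This comparison shares the NonIR-WT arrays with the irradiation effect in ATM-WT cells, where the values were 2.71 for Isg15 and 3.15 for Usp18. The macrophage and blood markers, Pdgfra, Dcn, Lum, Thy1, Cdh5 and Cdh1 had lower means in the same ATM-KO groups. Epcam and Pdgfrb had higher means there, and Kdr, Krt18 and the remaining fibroblast markers went neither way throughout. The part of these markers in the differences of Isg15 and Usp18 was not tested. In irradiated cells the genotype difference was 0.20 ± 0.293 for Isg15, with overlapping groups, and 0.59 ± 0.25 for Usp18, with all IR-KO arrays above all IR-WT arrays, as 3.13% of features had. Neither was called, where 0.0597% of features were called higher.

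The arrays lay on 3 slides, each holding irradiated and nonirradiated arrays. The difference of IR-WT minus NonIR-WT was 2.84 on slide 1 and 2.46 on slide 2 for Isg15, and 3.16 and 3.13 on the same slides for Usp18. That of IR-KO minus NonIR-KO was 0.31 on slide 2 and 0.31 on slide 3 for Isg15, and 0.92 and 0.61 for Usp18. Slide 2 alone held both genotypes, with 1 array per group. There NonIR-KO minus NonIR-WT was 2.15 for Isg15 and 2.74 for Usp18, and IR-KO minus IR-WT was 0 for Isg15 and 0.53 for Usp18. With slide as a fixed block in the fit, the genotype difference of Isg15 in nonirradiated cells was 2.27 and no longer called. Nonirradiated samples stood at positions 1 and 3 of every slide and irradiated ones at positions 2 and 4, and whether position or irradiation goes with a difference cannot be told apart.

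Of the 11 other genes of the pathway listed for comparison, 10 had a probe and were tested, and Skp2, the ligase subunit known in human cells to mark USP18 for degradation, was not matched. One of the 10 passed the test in 1 of the 5 comparisons. Ube2l6, the E2 of the cascade, was higher in irradiated ATM-WT cells by 1.49 ± 0.283 (log2, limma SE, adjusted p = 0.0458), against 0.423% of features called higher. Its values were 1.19, 1.54 and 1.68 in IR-WT and -0.58, 0.11 and 0.42 in NonIR-WT. All IR-WT values were higher, as 4.50% of features had. The call was kept in 2 of 12 fits that each left out 1 array, those without IR-KO replicate 1 or NonIR-WT replicate 3, with values of 1.21 to 1.70 over the 12, and was lost with another background correction, without the filter on dim probes or with only its own groups in the fit. In ATM-KO cells Ube2l6 had 1.71, 1.70 and 1.35 in IR-KO and 1.20, 0.99 and 0.83 in NonIR-KO, a difference of 0.58 ± 0.283 (adjusted p = 0.664 by limma). Its nonirradiated genotype difference was 1.03 ± 0.283 (adjusted p = 0.185 by limma), with all NonIR-KO arrays above all NonIR-WT arrays, as 8.29% of features had.

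Uba7, the E1, also had its lowest mean in NonIR-WT, with smaller differences. Its means ran in the order IR-KO, NonIR-KO, IR-WT and NonIR-WT, at 3.31, 3.21, 3.06 and 2.28, so the middle groups stood in the opposite order to those of the members. Its values were 3.02, 3.45 and 3.45 in IR-KO, 2.98, 3.34 and 3.31 in NonIR-KO, 2.51, 3.34 and 3.32 in IR-WT, and 1.74, 2.42 and 2.66 in NonIR-WT. The IR-WT and NonIR-WT arrays overlapped through replicate 1 of IR-WT, and the difference of 0.78 ± 0.311 was not called (adjusted p = 0.632 by limma). NonIR-KO arrays all lay above NonIR-WT arrays, as 8.29% of features had. The difference was 0.93 ± 0.311 (adjusted p = 0.34 by limma), and 0.35 with slide as a fixed block.

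Trim25 and Arih1, known in human cells as ligases for ISG15 beside HERC5, were not called in any of the 5 comparisons. Trim25 had 2 probes that differed in size: in IR-WT minus NonIR-WT the brighter gave 0.35 and the dimmer 0.93, and in NonIR-KO minus NonIR-WT 0.34 and 0.68. The 5 Arih1 probes gave 0.09 to 0.34 and -0.43 to 0.23 in the same comparisons. Usp5, Usp14, Usp16 and Usp21, proteases reported in human cells to act on ISG15 as well as ubiquitin, were not called either. In IR-WT minus NonIR-WT they differed by 0.14, 0.08, 0.29 and -0.13, and in NonIR-KO minus NonIR-WT by 0.35, -0.31, 0.10 and 0.11. None of these 4 came within 2 log2 units of Usp18 in either comparison.

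Itgal and Itgb2 encode the integrin LFA-1 of leukocytes, a receptor for Isg15 outside the cell. Both signals were dim. Itgal had -5.09, -4.32 and -4.56 in IR-KO, -4.02, -4.44 and -3.87 in NonIR-KO, -5.41, -3.80 and -3.50 in IR-WT, and -4.37, -3.53 and -1.61 in NonIR-WT. Itgb2 ran from -4.26 to -3.49 in NonIR-KO and from -3.21 to -2.72 in NonIR-WT, a difference of -0.84 ± 0.326 (adjusted p = 0.492 by limma). The macrophage and blood markers were lower in the same arrays, and their part in this was not tested.

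Over the 10 tested genes of the pathway list the median difference was 0.19 in IR-KO minus NonIR-KO, 0.16 in IR-WT minus NonIR-WT and 0.11 in NonIR-KO minus NonIR-WT. Over all features it was -0.05, -0.02 and 0.04. In IR-KO minus IR-WT the median was 0.01 for the list and -0.01 for all features, and the limma test called 0 of 10 genes there, with 0 of 10 at an unadjusted p under 0.05 (5.23% of features). For the difference of the effects the list's median was -0.10 against -0.06 for all features, with 0 of 10 called and 1 of 10 at an unadjusted p under 0.05 (0.901% of features). In IR-KO minus NonIR-KO 0 of 10 were called and 0 of 10 had an unadjusted p under 0.05 (7.93% of features), and in NonIR-KO minus NonIR-WT 0 of 10 were called and 3 of 10 had one (7.52% of features). The replicate block changed none of the counts of called genes.

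**Figure D2:**
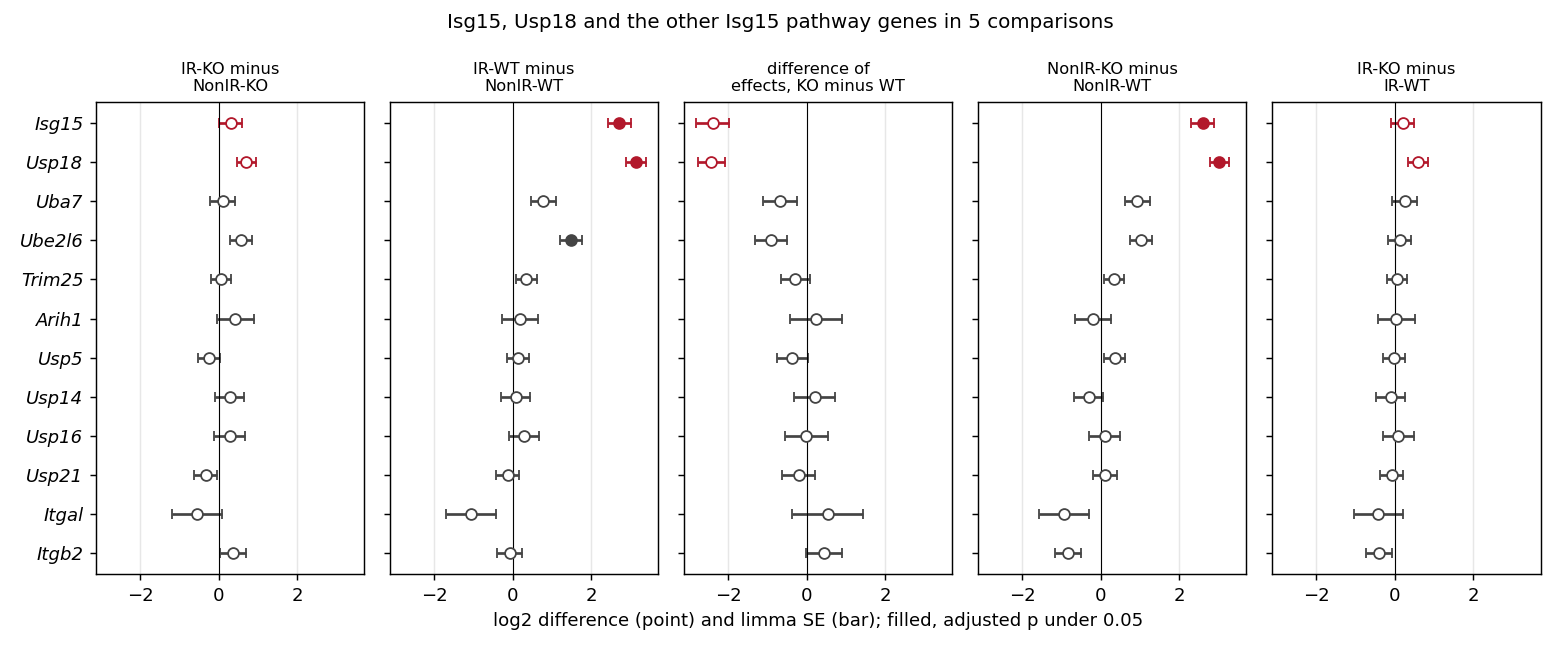
Log2 difference (point) and limma SE (bar) of Isg15 and Usp18 (red) and 10 other genes of the pathway (grey) in the 5 comparisons; filled points had an adjusted p under 0.05 without a replicate block. Isg15, Usp18 and Ube2l6 stand at 2.71, 3.15 and 1.49 in IR-WT minus NonIR-WT, and Isg15 and Usp18 at 2.60 and 3.02 in NonIR-KO minus NonIR-WT.

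In IR-WT minus NonIR-WT and in NonIR-KO minus NonIR-WT, the tested relatives of these genes had smaller differences than Isg15 and Usp18. The other ubiquitin-specific proteases were taken by symbol, Usp and a number, so the list may hold genes of another function. Of these 55 genes 44 had a probe and 37 were tested, and 0 were called in any of the 5 comparisons, with or without the replicate block. Their largest difference in IR-WT minus NonIR-WT was 1.59 ± 0.862 for Usp37 (adjusted p = 0.937 by limma), and in NonIR-KO minus NonIR-WT 1.39 ± 0.438 for Usp17la (adjusted p = 0.284 by limma), a member of a repeated gene family whose copies a probe may not tell apart. At an unadjusted p under 0.05, 0 of 37 and 1 of 37 passed in these comparisons, against 6.46% and 7.52% of features. Usp18 stood 1.56 log2 units above the next protease in the first comparison and 1.63 above it in the second. It did not lead in IR-KO minus NonIR-KO, where Usp9x was at 0.85 and Usp18 at 0.71, or in IR-KO minus IR-WT, where Usp17la was at 1.41 and Usp18 at 0.59. As Usp18 was chosen by its differences between these groups, nothing is read from its place among the proteases.

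Of 14 genes for ubiquitin and other ubiquitin-like modifiers 13 were tested, and their differences in IR-WT minus NonIR-WT ran from -0.75 for Ufm1 to 0.16 for the ubiquitin gene Rps27a. In NonIR-KO minus NonIR-WT they ran from -0.27 for Sumo2 to 0.23 for Rps27a. The 8 other E1 enzymes spanned -0.37 to 0.56 and -0.63 to 0.24 in the same comparisons. The other E2 enzymes were likewise taken by symbol, Ube2 and further letters or digits. The 31 tested of these 38 genes spanned -0.96 to 0.24 and -0.46 to 0.42. Ube2c, the E2 of the anaphase-promoting complex, was the lowest E2 in IR-WT minus NonIR-WT. Of the 4 other Herc genes, relatives of the Herc6 ligase, 3 were tested, and they lay between -0.14 and 0.03 and between -0.44 and -0.03. The limma test called 0 genes of these 4 families in any comparison, with or without the replicate block. At an unadjusted p under 0.05, 1 of 13 modifiers, 0 of 8 E1, 1 of 31 E2 and 0 of 3 Herc genes passed in IR-WT minus NonIR-WT, against 6.46% of features. In NonIR-KO minus NonIR-WT 0 of each passed, against 7.52% of features.

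**Figure D3:**
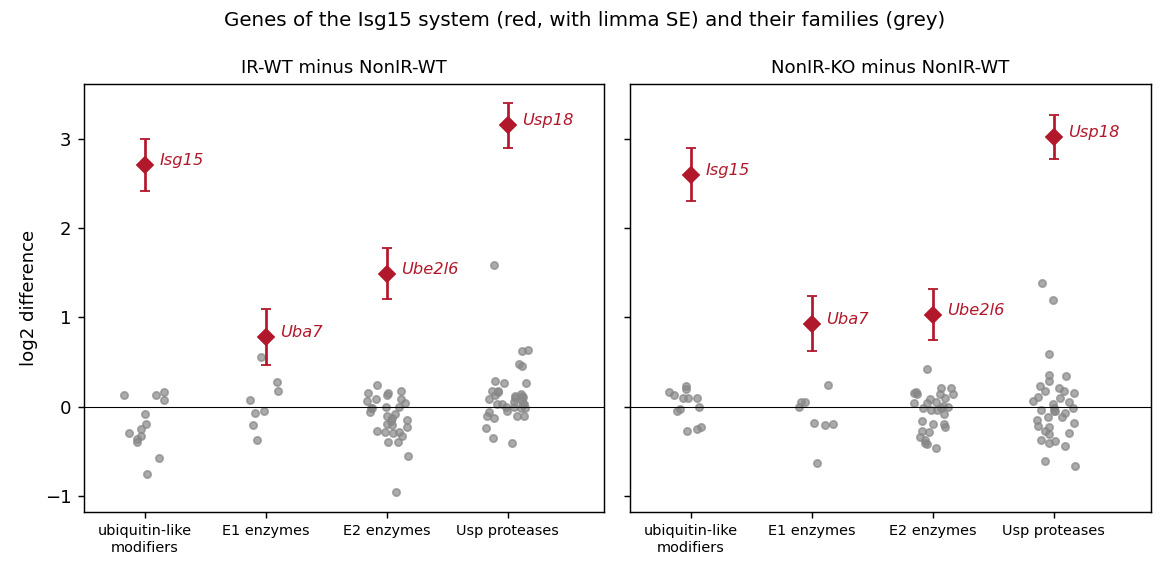
Log2 difference in IR-WT minus NonIR-WT (left) and NonIR-KO minus NonIR-WT (right) of Isg15, Uba7, Ube2l6 and Usp18 (red, with limma SE) beside the tested genes of each one's family (grey; spread sideways for visibility). The other modifiers lie between -0.75 and 0.23 while Isg15 stands at 2.71 and 2.60, and the highest grey protease is Usp37 at 1.59.

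The genes that lead to Isg15 and Usp18 were followed from the ligand inward, with 11 listed and 10 tested. In irradiated ATM-WT cells 2 of the 10 were called higher (0.423% of features) and 0 lower, both of them transcription factors, with a median of 0.21 over the list and -0.02 over all features. In nonirradiated ATM-KO against ATM-WT cells 2 of 10 were called higher (0.391% of features), with medians of 0.21 and 0.04. In the remaining 3 comparisons 0 of 10 were called without the replicate block; 4 of 10 in IR-KO minus NonIR-KO (7.93% of features), 3 of 10 for the difference of the effects (0.901%) and 2 of 10 in IR-KO minus IR-WT (5.23%) had an unadjusted p under 0.05. With the replicate block, 4 of 10 were called higher in IR-WT minus NonIR-WT, where 1.64% of features were, and 1 of 10 in IR-KO minus NonIR-KO, where 1.18% were.

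Ifnb1, the gene of the ligand interferon beta, was near the floor of the arrays. Its values were -3.42, -4.19 and -3.90 in IR-KO, -4.90, -5.13 and -5.69 in NonIR-KO, -5.00, -5.72 and -6.42 in IR-WT, and -7.85, -7.07 and -7.51 in NonIR-WT. It was well above background on 3 of 3 IR-KO, 1 of 3 NonIR-KO, 1 of 3 IR-WT and 0 of 3 NonIR-WT arrays. IR-KO arrays were the highest 3, and the NonIR-WT level is only a bound. The measured means of -5.24 in NonIR-KO and -7.48 in NonIR-WT differed (adjusted p = 0.0147 by limma). With the NonIR-WT arrays raised to their floor the fold was 1.25. As only 1 of 3 NonIR-KO arrays was above background, this fold is not a lower bound. The sign of the difference of NonIR-KO minus NonIR-WT turned to -0.43 with normexp background correction, and the call was also lost with quantile normalization and without NonIR-KO replicate 2, NonIR-WT replicate 1 or NonIR-WT replicate 3, at 2.05 to 2.22. The IR-KO arrays lay above all IR-WT arrays, as 3.13% of features had, and above all NonIR-KO arrays, as 6.70% had. As only 1 array of each of those groups was above background, the measured differences of 1.88 and 1.40 are uncertain. With normexp they were 0.64 and 0.39. In IR-WT minus NonIR-WT the difference was called with the replicate block (adjusted p = 0.028 by limma, 0.0918 without it), and it turned negative, to -0.67, with normexp. Ifna4, another ligand gene, was not well above background on any array.

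The receptor genes and the kinases were not called in any comparison. Ifnar1 differed by 0.05 ± 0.261 in IR-WT minus NonIR-WT and by 0.01 ± 0.261 in NonIR-KO minus NonIR-WT, and Ifnar2, the subunit that Usp18 binds, by 0.05 ± 0.218 and -0.24 ± 0.218. Tyk2 differed by 0.04 and 0.21, and Jak1 by 0.22 and -0.24, in the same comparisons. By the brighter of 2 probes, Jak1 had 3.79, 3.39 and 3.47 in IR-KO. These lay above 2.81, 3.05 and 3.02 in NonIR-KO, as 6.70% of features did (adjusted p = 0.579 by limma). The dimmer probe overlapped, with 3.22, 3.07 and 2.90 in IR-KO and 2.31, 2.97 and 2.61 in NonIR-KO.

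The factor genes Stat2 and Irf9, whose products act together on the ISRE, were lowest in the same group as the members. Stat2 was called higher in irradiated ATM-WT cells, by 1.98 ± 0.288 (adjusted p = 0.00698 by limma), a call lost with only the compared groups in the fit. Its values were 4.20, 4.71 and 4.57 in IR-WT and 2.29, 2.97 and 2.28 in NonIR-WT. Irf9 had 3.17, 3.53 and 3.47 in IR-KO, 3.18, 3.46 and 3.55 in NonIR-KO, 3.20, 3.59 and 3.52 in IR-WT, and 2.17, 2.53 and 2.26 in NonIR-WT. Like Isg15 it overlapped among the 3 higher groups, and its difference of 1.12 ± 0.23 in IR-WT minus NonIR-WT was called with the replicate block (adjusted p = 0.0116 by limma, 0.0751 without it).

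Irf7, the interferon-inducible factor that amplifies interferon production, separated all 4 groups. Its values were 3.85, 4.18 and 4.41 in IR-KO, 1.74, 2.61 and 2.40 in NonIR-KO, 2.75, 2.95 and 3.13 in IR-WT, and -1.63, -0.33 and -0.52 in NonIR-WT. The first group was higher without overlap for 6.70% of features in IR-KO minus NonIR-KO and 4.50% in IR-WT minus NonIR-WT. That share was 8.29% in NonIR-KO minus NonIR-WT and 3.13% in IR-KO minus IR-WT. Irf7 was higher in IR-WT than in NonIR-WT by 3.77 ± 0.354 (adjusted p = 0.000607 by limma) and in NonIR-KO than in NonIR-WT by 3.08 ± 0.354 (adjusted p = 0.0011 by limma), the second of which missed the threshold with slide as a fixed block, at 2.43. In IR-KO minus NonIR-KO it differed by 1.90 ± 0.354, called with the replicate block (adjusted p = 0.0138 by limma, 0.166 without it). By their brightest probes Irf1 and Irf3 differed by -0.22 to 0.21 over the 5 comparisons and were not called. The difference of the irradiation effects was -1.87 ± 0.501 for Irf7 and -1.27 ± 0.407 for Stat2, neither called with or without the replicate block.

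**Figure D4:**
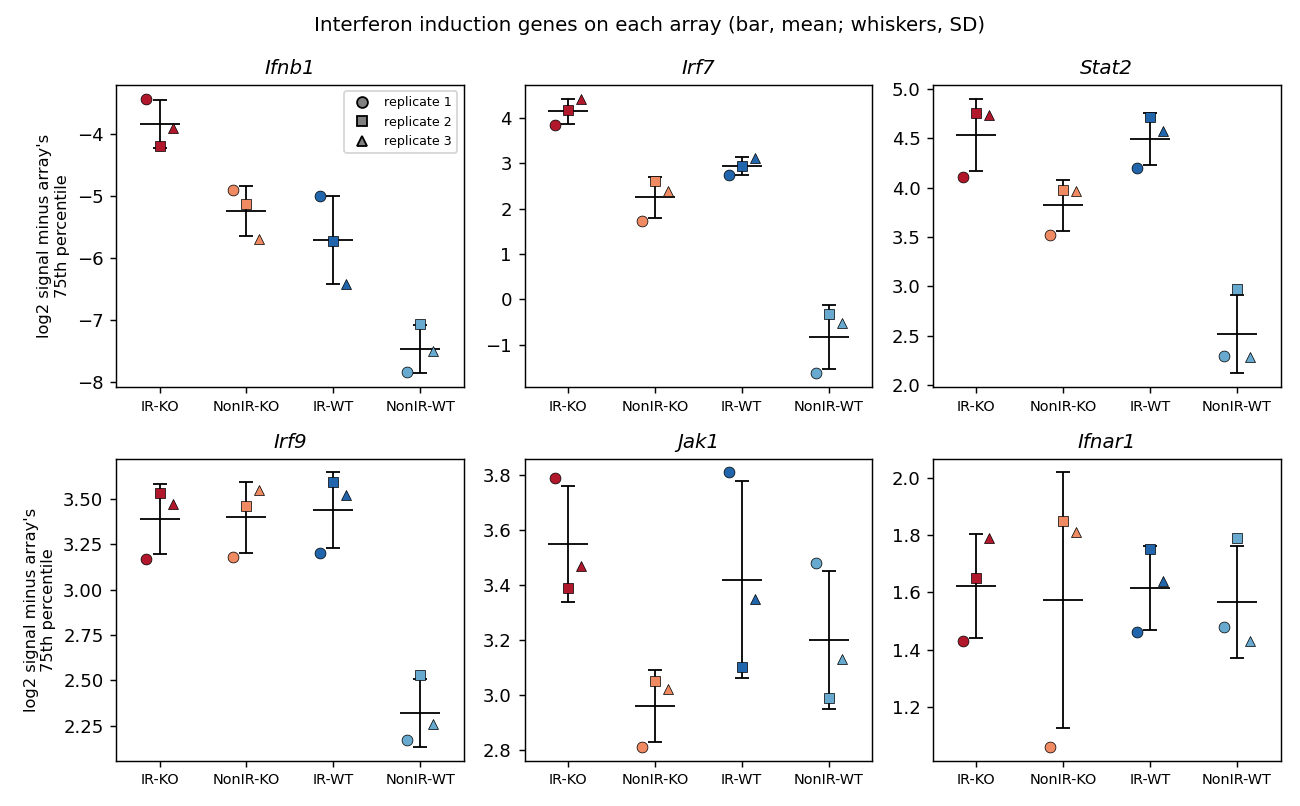
Log2 signal minus the array's 75th percentile of Ifnb1, Irf7, Stat2, Irf9, Jak1 and Ifnar1 on each of the 12 arrays; marker shape gives the replicate number, the bar the group mean and the whiskers the SD (n = 3). Irf7 runs from -1.63 to -0.33 in NonIR-WT and from 3.85 to 4.41 in IR-KO while Ifnar1 stays between 1.06 and 1.85 on all arrays; Ifnb1 was well above background on only 5 of the 12, and axes differ between panels and do not start at 0.

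Isg15 and Usp18 also varied together within groups. Over the 12 arrays their Pearson r was 0.989, a value that includes the gap between NonIR-WT and the other groups. After each group's mean was taken off, r was 0.906 over the same 12 arrays, which share their scaling by the 75th percentile. Replicate 2 had the highest Isg15 and the highest Usp18 value in 4 of 4 groups. Replicate 1 had the lowest Isg15 value in 4 of 4 groups and the lowest Usp18 value in 3 of 4. The replicate 1 arrays also stood apart over all features, with r of 0.9575 to 0.9729 to their group mates against 0.9841 to 0.9937 between replicates 2 and 3. With all 4 replicate 1 arrays left out, an alternative added after seeing the data, IR-WT minus NonIR-WT was 2.55 for Isg15 and 3.03 for Usp18, and NonIR-KO minus NonIR-WT 2.38 and 2.95, all still called. The within-group r with Isg15 was 0.885 for Uba7 and 0.699 for Ube2l6. Values of similar size were found for genes outside the cascade that were not called in any comparison. They were 0.864 for Usp5, 0.841 for Tyk2, -0.757 for Jak1 and -0.741 for Usp14, so such values were not particular to the cascade.

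**Figure D5:**
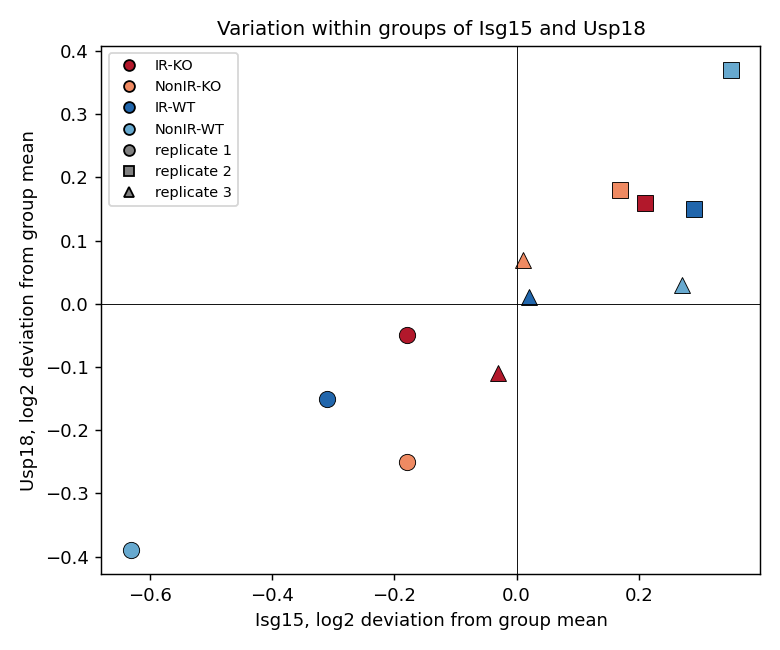
Deviation of each array from its group's mean (log2) for Isg15 (horizontal) and Usp18 (vertical), with colour for the group and shape for the replicate number. Replicate 2 lies at the upper right in every group, and NonIR-WT replicates 1 and 2 are farthest apart, at -0.63 and 0.35 for Isg15.

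The named genes whose signal was most like that of each member, by Pearson r over the 12 arrays, were known interferon-stimulated genes. For Isg15 they were Oasl2 (r = 0.988), Xaf1 (0.98), Dhx58 (0.979), Parp12 (0.979) and Bst2 (0.973). For Usp18 they were Oasl2 (0.994), Xaf1 (0.986), Rtp4 (0.98), Oas2 (0.979) and Bst2 (0.978), so 3 genes stood in both sets. Oasl2, an oligoadenylate synthetase-like protein, had 5.46, 5.72 and 5.71 in IR-KO, 4.74, 5.24 and 4.99 in NonIR-KO, 5.09, 5.14 and 5.48 in IR-WT, and 1.79, 2.68 and 2.39 in NonIR-WT. Within groups its r was 0.809 with Isg15 and 0.838 with Usp18. Oas2, a synthetase that senses double-stranded RNA, spanned more, with differences of 1.56 in IR-KO minus NonIR-KO and 4.09 in IR-WT minus NonIR-WT. The 7 genes differed by 1.27 to 4.09 in IR-WT minus NonIR-WT and by 1.15 to 3.61 in NonIR-KO minus NonIR-WT, ranges that hold both members, and by 0.23 to 1.56 in IR-KO minus NonIR-KO. These genes were picked for this likeness, so their differences are given as values with no test.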

How the data were processed

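RNA of 12 samples was hybridised as Cy3-labelled cRNA, per the labels' protocols. The deposited scanner files hold processed spot intensity in arbitrary units from Feature Extraction 10.7.1.1, with background subtracted within the array, per the file headers; the submitters' processing notes name version 11.0. A deposited matrix of log2 values followed the same signal after scaling by the 75th percentile and centring on each probe's median (largest absolute median 5e-04), its direction and scale found from the values, and served as an alternative.

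Control spots were left out, processed signals were put on the log2 scale, and the 75th percentile of the array was subtracted. Repeated spots of 1 probe were averaged without those flagged as outliers, unless all of them were flagged. The probes of Isg15 and Usp18 had 1 spot each, so an outlier flag could not remove their values. Accessions were matched to a RefSeq gene table, which named 25097 of 41174 probes and 17305 genes; a gene with several probes took the probe with the highest mean. The 18430 features tested were those detected (well above background) on each array of 1 or more groups. A group-means model over all 12 arrays was fitted with limma 3.58.1 in R 4.3.3 (eBayes, Benjamini-Hochberg adjustment over 18430 features, threshold 0.05). Where 1 group was below background on every array, a fold with the dim group at its floor was taken. It is the bright mean over the higher of each dim array's own signal and its lowest signal well above background. It is a lower bound only where the bright group was itself above background. The number of arrays limits the precision.

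Members, gene lists, families and named genes were chosen with earlier results of these data known: the members, Atm, 2 lists of pathway and induction genes, the highest and lowest of each family, and the 5 genes most like each member. The induction list is given without 1 further gene, which is not reported here. Deviations of same-numbered samples from group means correlated in IR-KO and NonIR-KO (0.269 to 0.51), IR-WT and NonIR-WT (0.481 to 0.852), and IR-KO and IR-WT (0.218 to 0.628), but not in NonIR-KO and NonIR-WT (-0.217 to 0.179). Replicate 2 of the first pair of groups had 0.269 against up to 0.335 with another number. Replicate 3 of IR-KO and IR-WT had 0.218 against up to 0.387, so the numbers did not pair all samples. Same-numbered samples of a genotype also stood side by side on 1 slide, and the part of this in the correlations was not tested. For the irradiation effects and their difference, the replicate block was the replicate number within each genotype. For the genotype differences, a separate fit used the number within irradiated and within nonirradiated samples. Alternatives were the replicate block, slide as a block, normexp background correction (offset 50) on the median spot signal, quantile normalization, the filter on dim probes, the mean of all probes, the deposited matrix, only the compared groups in the fit, and leaving out each array in turn. Promoter windows came from RefSeq (GRCm38.p6); coordinates of the arrays' own build, mm9, were not used.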

Additional observations from a re-analysis of the deposited data

Results flagged for a closer look

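The irradiation effect differed between genotypes for both members when the replicate number within each genotype was a block: by -2.40 (log2, ATM-KO minus ATM-WT) for Isg15 and by -2.43 for Usp18. Without the block neither was called by limma. Since the members were proposed with these contrasts known, the differences are descriptions. Groups of 3 arrays were not searched for single outlying arrays.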

How the results depend on the processing

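Isg15 and Usp18 were called in IR-WT minus NonIR-WT and in NonIR-KO minus NonIR-WT under each alternative and with each array left out, except that with slide as a fixed block Isg15 in NonIR-KO minus NonIR-WT was 2.27 and missed the threshold. In the same fit Isg15 in IR-KO minus IR-WT turned to -0.13. With the replicate block the difference of the effects became a call for Isg15 at -2.40 and for Usp18 at -2.43. Leaving out 1 array at a time gave 2.40 to 2.89 for Isg15 and 2.95 to 3.33 for Usp18 in IR-WT minus NonIR-WT, 2.29 to 2.77 and 2.82 to 3.20 in NonIR-KO minus NonIR-WT, 0.21 to 0.40 and 0.59 to 0.81 in IR-KO minus NonIR-KO, 0.04 to 0.34 and 0.51 to 0.66 in IR-KO minus IR-WT, and -2.58 to -2.09 and -2.62 to -2.24 for the difference of the effects. The sign of Ifnb1 in NonIR-KO minus NonIR-WT turned to -0.43 with normexp. The count of called pathway genes in IR-WT minus NonIR-WT was 0 with normexp, with no filter on dim probes and with only the compared groups, and 0 to 1 with each array left out; in NonIR-KO minus NonIR-WT it was 2 without the replicate 1 arrays, Uba7 higher and Itgb2 lower. The count of called induction genes in IR-WT minus NonIR-WT was 4 with the replicate block or the slide block, 1 with only the compared groups and 2 to 3 with each array left out. In NonIR-KO minus NonIR-WT it was 4 with the replicate block, whose numbers do not pair these samples, 1 with the slide block, with normexp or with the stricter filter on dim probes, 4 without the replicate 1 arrays and 1 to 4 with each array left out. In IR-KO minus NonIR-KO it was 1 with the replicate block, and in IR-KO minus IR-WT 2 without the replicate 1 arrays and 0 to 1 with each array left out. Beside these, the replicate block made calls of Atm in NonIR-KO minus NonIR-WT and in IR-KO minus IR-WT, and it changed no other call among the named genes. The cause of these changes was not tested. The count of all called features was 377 with the replicate block and 1 without it in IR-KO minus NonIR-KO, and 417 and 82 in IR-WT minus NonIR-WT. Over all settings this count ran from 44 to 417 in IR-WT minus NonIR-WT, from 34 to 1580 in NonIR-KO minus NonIR-WT (158 as reported) and from 3 to 1044 in IR-KO minus IR-WT (38 as reported). The highest of the last 2 ranges came without the replicate 1 arrays, and leaving out NonIR-KO replicate 2 gave 57 in NonIR-KO minus NonIR-WT. The fit with only the compared groups was not run for the difference of the effects, which needs all 4. Values for Herc6 could not be computed.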
